A study of Homo sapiens with 4 samples.

Results

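In a pooled knockout screen of metabolic genes, 109 of 7142 sgRNAs (1.53%) took a much larger share of the reads in oxaliplatin replicate 1 than in any other library. These sgRNAs were chosen by their measured values. Counts were divided by the library total and multiplied by 1000000 (CPM), and an sgRNA was kept if it reached at least 100 CPM in replicate 1 and at least 8 times its CPM in each of the PBS library, replicate 2 and replicate 3. They are called the expanded sgRNAs here, a word that refers only to their share of reads. The cells were HCT116, an established human colon carcinoma line, transduced with a lentiviral CRISPR-Cas9 library of 1773 genes with 4 sgRNAs each and 50 further entries with a single sgRNA, selected with puromycin and divided into 4 groups. 1 group was kept in PBS and sequenced as 1 library. The other 3 were treated for 7 days with oxaliplatin, a DNA-damaging platinum compound, at 10 µM and were sequenced as 1 library each. The groups were split from 1 pool of selected cells, and no library from before treatment was analysed here.

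In such a screen each transduced cell carries 1 sgRNA that directs Cas9 to cut 1 gene, so the share of reads of an sgRNA follows the share of living cells that carry it. A knockout that lets cells outlast a drug raises the share of most working sgRNAs of that gene, in every culture given the drug. A small number of cells that happen to multiply raises the share of whichever sgRNA they carry, and a drug that leaves few survivors makes such chance differences larger. Counts per sgRNA do not follow cell lineages, so growth of a few cells and a change shared by all cells with an sgRNA cannot be told apart here. Replicate 1 is a single library, its difference from the others has no replicate check, and no test was made on the values that chose the expanded sgRNAs.

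The libraries held 8934799 counts in PBS, 27563013 in replicate 1, 10494731 in replicate 2 and 11146921 in replicate 3, so 100 CPM in replicate 1 stood for 2757 counts. The median sgRNA had 73.5 CPM in PBS, 18.0 in replicate 1, 66.2 in replicate 2 and 79.0 in replicate 3. Replicate 1 thus had the lowest median although it was sequenced most deeply. Across the 7142 sgRNAs, which share the same 4 libraries, Pearson's r of log2(CPM + 1) was 0.959 between replicates 2 and 3, 0.632 between replicates 1 and 2 and 0.651 between replicates 1 and 3. Replicate 1 stood apart from the other oxaliplatin libraries, and leaving out the expanded sgRNAs moved its r only to 0.654 and 0.675.

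The expanded sgRNAs held 23.4% of all counts of replicate 1, against 0.875% in PBS, 1.27% in replicate 2 and 1.25% in replicate 3. In replicate 1 their CPM ran from 140 through a median of 1189 to 18563. In PBS it ran from 0 through 43.2 to 801, in replicate 2 from 1.81 through 47.8 to 813, and in replicate 3 from 5.38 through 73.9 to 649. The ratio of replicate 1 to the highest other library ran from 8.06 through a median of 12.3 to 499, with 41 sgRNAs at 16 or more, 12 at 32 or more and 1 at 64 or more.

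A few sgRNAs carried much of this share. The highest alone held 1.86% of the counts of replicate 1, the top 5 held 6.80%, the top 10 held 9.70% and the top 20 held 13.4%. The 10 most abundant sgRNAs of replicate 1 were all expanded sgRNAs, as were 27 of the top 50 and 41 of the top 100. Without the 109, the share of every other sgRNA in replicate 1 would be 1.31-fold higher.

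The same rule was then applied with each other library in the place of replicate 1. It chose 20 sgRNAs for PBS (0.280%), at 105 to 366 CPM and 8.10 to 12.6 times the highest other library, on 20 genes of which none carried an expanded sgRNA. It chose 0 for replicate 2 (0%) and 0 for replicate 3 (0%). Those libraries resembled each other, so each kept the sgRNAs of the other from passing, whereas replicate 1 and PBS had no library so like them. With the fold lowered to 2, the rule chose 486 sgRNAs for replicate 1, 732 for PBS, 28 for replicate 2 and 34 for replicate 3. At 16-fold it chose 41 for replicate 1 and 0 for PBS. PBS therefore had more sgRNAs of its own at the low fold and fewer at the high fold.

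The number of expanded sgRNAs depended on the scaling. Scaling by median ratios or by TMM, which follow the middle of the distribution rather than the total, raised the values of replicate 1, the library with the lowest median. The rule then chose 474 sgRNAs (6.64% of all) and 480 (6.72%). All 109 were among them under both.

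The most abundant expanded sgRNA targeted CHPF2, which works in chondroitin chain synthesis. sgRNA_4822 had 338 CPM in PBS, 18563 in replicate 1, 289 in replicate 2 and 380 in replicate 3, a 48.8-fold excess over the highest other library (exact 95% interval 47.4 to 50.4, which covers counting error only, as do all such intervals here). Replicate 1 alone was high and the other libraries were close together. sgRNA_516 against CA11, a carbonic anhydrase-related protein, had 628 CPM in PBS, 14985 in replicate 1, 568 in replicate 2 and 418 in replicate 3. sgRNA_3945 against ILVBL, named for its similarity to acetolactate synthase, had 328, 12831, 746 and 508 CPM in the same order. sgRNA_2235 against NEU1, the lysosomal sialidase, had 212, 12126, 453 and 322 CPM. All 4 were also above the median sgRNA in PBS, so they were not rare in that library.

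The next of the 10 most abundant were sgRNA_2441 against PDE6B, a subunit of the photoreceptor cGMP phosphodiesterase, with 801 CPM in PBS, 9543 in replicate 1, 813 in replicate 2 and 649 in replicate 3, and sgRNA_2486 against PFKFB4, which makes and breaks down the glycolytic regulator fructose 2,6-bisphosphate, with 395, 7399, 174 and 196 CPM. PHOSPHO1, a phosphatase of mineralising cartilage, was next with sgRNA_6539 at 151, 5679, 533 and 501 CPM. GAL3ST3, a galactose sulfotransferase, had sgRNA_6031 at 134, 5523, 542 and 506 CPM. The PHOSPHO1 and GAL3ST3 sgRNAs were lower in PBS than in any oxaliplatin library. sgRNA_6483 against FAHD2B followed at 566, 5200, 644 and 572 CPM. The last of the 10, sgRNA_1741 against HSD17B4, the D-bifunctional protein of peroxisomal fatty acid oxidation, had 188, 5116, 28.3 and 45.6 CPM and was 27.3-fold above its highest other library, PBS. Its replicates 2 and 3 lay below PBS, the reverse of PHOSPHO1 and GAL3ST3.

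The largest ratio belonged to ALG6, a glucosyltransferase that works on the lipid-linked precursor of N-glycans. Its sgRNA_4463 had 0 counts in PBS, 74096 in replicate 1, 41 in replicate 2 and 60 in replicate 3, which is 2688 CPM against 5.38 CPM in replicate 3, a 499-fold excess (388 to 655). DSE, an epimerase of dermatan sulfate synthesis, followed with sgRNA_4468 at 43.2 CPM in PBS, 3404 in replicate 1, 34.9 in replicate 2 and 56.0 in replicate 3, a 60.8-fold excess (56.2 to 65.9). ALG6 rested on low counts outside replicate 1, whereas DSE was measured by 366 counts or more in every library.

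The expanded sgRNAs with the lowest level were those against SCCPDH (140 CPM), TPH1 (158 CPM) and ACYP2 (165 CPM), and the nearest sgRNAs kept out by level alone were those against ASAH2 (84.8 CPM), NADK (73.2 CPM) and NUDT5 (62.7 CPM). The smallest ratios kept were those of ST6GALNAC2 (8.06), FAHD2B (8.07) and NEU3 (8.07), and the nearest kept out were those of RDH8 (7.89), INPP5K (7.87) and HS2ST1 (7.83). At the level threshold no sgRNA that met the fold lay between 84.8 and 140 CPM. The gap at 8-fold was narrower than the counting interval of ST6GALNAC2, 7.72 to 8.42.

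The 109 expanded sgRNAs fell on 106 genes and on 2 single-sgRNA entries. Of the 106 genes, 105 had 1 expanded sgRNA of their 4, and UROD alone had 2. Genes with 2 or more numbered 9 at 4-fold, 35 with median-ratio scaling, 38 with TMM and 2 to 3 without 1 of the comparison libraries (2 without PBS, 2 without replicate 2 and 3 without replicate 3). Each expanded sgRNA was therefore paired in turn with the other sgRNAs of its gene, giving 321 pairs, and in 2 of them the partner was expanded too, namely UROD counted from either side. That is 0.623% of the pairs (exact 95% binomial interval 0.0755 to 2.23%), beside 1.53% of all sgRNAs. The interval contains the library-wide share, but no conclusion is drawn from it. It takes the pairs as independent, which those of the same gene are not, and it counts UROD from both sides. Under the other scalings the partners stayed below the library-wide share, at 5.56% beside 6.64% with median ratios and 6.33% beside 6.72% with TMM. At 4-fold they were at 2.63% beside 3.25%.

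The single-sgRNA entries are named in the deposited table by library codes. HGLibA_14133 had 4 counts in PBS, 44426 in replicate 1, 1914 in replicate 2 and 1660 in replicate 3. HGLibA_14106 had 729, 43840, 100 and 1084 counts. Neither has a second sgRNA to compare with, and what they target was not determined.

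The comparison was widened to the level of every other sgRNA of these genes, which are not expanded by construction, as are those of the remaining genes. Log2 ratios here and below, and the folds taken from them, were computed after adding 1 CPM to each side. This pulls the ratios of low levels toward no change. Over the 317 other sgRNAs, the median log2 ratio of replicate 1 to the mean of replicates 2 and 3 was -1.65, with quartiles of -2.98 and -0.25. Over the 6668 sgRNAs of genes without an expanded sgRNA it was -1.84, with quartiles of -3.28 and -0.36. Of the other sgRNAs of the expanded genes, 33 (10.4%) were at least 2-fold higher in replicate 1, which is also 10.4% of the sgRNAs of the remaining genes, and 63.1% were at least 2-fold lower, against 65.2%. At 8-fold or more the shares were 0.631% and 0.840%. The other sgRNAs of the same genes thus lay about where the rest of the library lay. In 78 of the 106 genes no other sgRNA was 2-fold higher in replicate 1.

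The expanded sgRNA held a median of 87.8% of its gene's counts in replicate 1 (6.37 to 99.9%), and at least 50% in 95 of 106 genes. Such shares follow in part from choosing these sgRNAs by a high level in replicate 1, and were not set beside those of other genes. In 12 genes the summed CPM of replicate 1 was at least 8 times that of every other library, and all 12 held an expanded sgRNA. That was nearly fixed in advance, because the rule used the same counts and fold, and nothing is read from it. The largest were ALG6 (20.4-fold), CHPF2 (15.8-fold), ELOVL5 (14.0-fold), MPO (13.8-fold) and UROD (13.2-fold). With the expanded sgRNAs included, the genes' median of their sgRNAs' log2 ratios was -0.86. Without them it was -1.70, beside -1.84 for genes without an expanded sgRNA. The higher value with them follows from how they were chosen, and nothing is read from it.

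The spread within a gene can be read from the named genes. For CHPF2 the log2 ratio of replicate 1 to replicates 2 and 3 was 5.79 for the expanded sgRNA and 1.44, -2.39 and -3.91 for the others. For CA11 it was 4.92 against -2.24, -2.89 and -3.62, and for NEU1 4.96 against -1.36, -5.27 and 0.96. ALG6 had 8.90 against -3.62, 0.43 and 0.55. In all 4 genes at least 1 other sgRNA against the same target was lower in replicate 1. For ELOVL5, an elongase of polyunsaturated fatty acids, sgRNA_5350 was 53.2-fold above its highest other library, while the other sgRNAs had log2 ratios of -3.24, -3.26 and -0.63.

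UROD, the uroporphyrinogen decarboxylase of heme synthesis, was the exception. sgRNA_3138 had 83.0 CPM in PBS, 3715 in replicate 1, 13.1 in replicate 2 and 18.0 in replicate 3, and sgRNA_3140 had 144, 1189, 42.9 and 80.2 CPM. Both were highest in replicate 1, next highest in PBS and lowest in replicate 2. They exceeded PBS 44.7-fold (41.6 to 48.1) and 8.28-fold (7.83 to 8.76), so that the interval of the second included the threshold. The other sgRNAs of UROD went the opposite way. sgRNA_3137 had 1307 counts in PBS, 430 in replicate 1, 2375 in replicate 2 and 1845 in replicate 3, and sgRNA_3139 had 0, 26, 365 and 366. The 4 log2 ratios of replicate 1 to replicates 2 and 3 were -3.57, 7.81, -4.16 and 4.25, in the order of the sgRNA numbers. At 16-fold UROD kept only sgRNA_3138.

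Because of UROD, the other enzymes of heme synthesis were looked up after these values were seen, and they support nothing. Of 36 sgRNAs against the 9 genes, 3 (8.33%) were expanded, beside 1.53% of all sgRNAs. They were both those of UROD, the gene that prompted the lookup, and sgRNA_3143 against UROS, the synthase a step before UROD. This UROS sgRNA had 99.3 CPM in PBS, 2248 in replicate 1, 91.0 in replicate 2 and 167 in replicate 3. The other UROS sgRNAs had log2 ratios of -1.66, -1.63 and -1.30, all lower in replicate 1. The 33 heme sgRNAs that were not expanded had a median log2 ratio of -1.66, with 23 at least 2-fold lower and 4 at least 2-fold higher.

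In 28 of the 106 genes (26.4%) at least 1 other sgRNA was 2-fold or more higher in replicate 1 than in replicates 2 and 3, in 4 genes (3.77%) at least 2 were, and in 1 gene (0.943%) all 3 were. In the 1667 genes with 4 sgRNAs and none expanded, leaving out each sgRNA in turn gave 6668 sets of 3, of which 28.1%, 3.06% and 0.120% met the same conditions. The share with at least 1 lay near that background. The following genes are named as examples after their values were seen, and nothing is read from them. The gene with all 3 was MCCC1, a subunit of the leucine-degrading enzyme methylcrotonyl-CoA carboxylase. Its expanded sgRNA_5212 had 259 counts in PBS, 27303 in replicate 1, 541 in replicate 2 and 770 in replicate 3. Its others had log2 ratios of 1.91, 1.96 and 1.37, and each exceeded its highest other library only 3.33-fold, 2.11-fold and 2.40-fold. CS, the citrate synthase that opens the citrate cycle, had 3.72 for the expanded sgRNA and 1.82, -5.72 and 1.17 for the others. TYMS, the thymidylate synthase inhibited by fluorouracil, had 3.81 against -3.51, 1.76 and 2.78.

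Gene groups were described from lists that were chosen with earlier results of these data known, each by the count of its sgRNAs that were expanded, beside 1.53% of all sgRNAs. In fatty acid oxidation, activation and elongation 7 of 240 sgRNAs (2.92%) were expanded. The most abundant of them were HSD17B4, ELOVL5 and ELOVL6, an elongase that extends palmitate, whose sgRNA_5526 had 0 CPM in PBS, 2472 in replicate 1, 57.5 in replicate 2 and 76.6 in replicate 3. Without those 7, the group's median log2 ratio was -2.01, below the -1.84 of the whole library without expanded sgRNAs. In glycosaminoglycan synthesis 5 of 212 (2.36%) were expanded, led by CHPF2, DSE and the sulfotransferase CHST4, whose sgRNA_3726 had 0.112, 2696, 293 and 246 CPM. Its median without them was -1.55.

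Among the sgRNAs against glycolysis, the pentose phosphate pathway and the citrate cycle, 6 of 260 (2.31%) were expanded. sgRNA_728 against CS had 278 CPM in PBS, 3213 in replicate 1, 272 in replicate 2 and 214 in replicate 3. SUCLA2, a subunit of succinyl-CoA ligase, had sgRNA_3396 at 126, 1541, 64.2 and 84.7 CPM, and PFKP, the platelet phosphofructokinase, had sgRNA_2500 at 156, 1443, 33.2 and 107 CPM. In all 3 the PBS library was the highest of the remaining libraries. In N-glycan and GPI anchor assembly 5 of 220 (2.27%) were expanded, led by ALG6 and the GPI anchor genes PIGO (sgRNA_5975 at 189, 2148, 155 and 190 CPM) and PIGU (sgRNA_6310 at 103, 1068, 31.2 and 26.6 CPM).

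Nucleotide synthesis and salvage had 5 expanded of 260 sgRNAs (1.92%). AK3, a mitochondrial adenylate kinase family member, had sgRNA_4537 at 0 CPM in PBS, 856 in replicate 1, 17.0 in replicate 2 and 22.9 in replicate 3. CAD, which carries out the opening steps of pyrimidine synthesis, had sgRNA_523 at 0, 630, 19.6 and 21.3 CPM. Both had 0 counts in PBS. TYMS sgRNA_3068, also of this group, had 31 counts there.

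The remaining groups held fewer. Phosphoinositide enzymes had 4 of 204 (1.96%), led by IMPA2, ITPKC and PLCB4. Cytochrome P450 enzymes had 4 of 216 (1.85%), led by CYP2A13, CYP26B1 and CYP2B6. The CYP2A13 sgRNA_788 had 5 counts in PBS, 116194 in replicate 1, 1389 in replicate 2 and 1540 in replicate 3. Its CPM in replicate 1 was 30.5-fold above that of replicate 3, the highest other library. Mevalonate and sterol synthesis had 2 of 108 (1.85%, ACAT2 and LBR), drug-conjugating transferases 2 of 144 (1.39%, UGT2B10 and UGT2B11), cyclic nucleotide phosphodiesterases and cyclases 2 of 168 (1.19%, PDE6B and PDE7B), O-glycan and terminal glycosyltransferases 3 of 288 (1.04%, FUT2, ST6GALNAC2 and ST8SIA4), and lipases 2 of 224 (0.893%, PNPLA6 and PNLIPRP1). The respiratory chain had 1 of 156 in complex I (0.641%, NDUFA9) and 1 of 152 in complexes II to V and coenzyme Q (0.658%, COX4I1). The folate cycle had 0 of 116. No group exceeded 7 expanded sgRNAs, and no test was made between groups.

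Glutathione and peroxide defence, the system around the gene the study followed, had 1 of 184 (0.543%). It was sgRNA_1492 against GPX4, the peroxidase that clears lipid peroxides and guards against ferroptosis, at 52.4 CPM in PBS, 636 in replicate 1, 39.8 in replicate 2 and 40.5 in replicate 3. The other GPX4 sgRNAs had log2 ratios of -1.53, 0.76 and 2.16. Of the 40 sgRNAs against the 10 genes that the study took on to a viability assay, 1 (2.50%) was expanded, beside 1.53% of all sgRNAs. That sgRNA_5668 against AGMAT, named as an agmatinase, had 1 count in PBS, 54861 in replicate 1, 334 in replicate 2 and 414 in replicate 3. It was thus above PBS in every oxaliplatin library and highest in replicate 1. The study drew its 10 genes from those most downregulated with oxaliplatin, the opposite direction. The other AGMAT sgRNAs were lower in replicate 1 than in replicates 2 and 3, with log2 ratios of -2.76, -0.97 and -3.64. They too were above PBS in every oxaliplatin library. sgRNA_5665 had 0 CPM in PBS, 5.44 in replicate 1, 57.3 in replicate 2 and 27.9 in replicate 3. sgRNA_5666 had 264, 347, 784 and 576 CPM in the same order, and sgRNA_5667 had 0, 4.97, 54.0 and 92.6 CPM.

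The expanded sgRNAs spanned the levels of the PBS library, which stood for 7 days in PBS and is not a starting pool. In PBS, 38 of them (34.9%) had 2 counts or fewer, against 27.0% of all sgRNAs, 9 (8.26%) had 3 to 99, against 5.00%, and 62 (56.9%) had 100 or more, against 68.0%. None was at 0 in replicate 2 or 3. Over the whole library 1354 sgRNAs were at 0 in PBS, against 22 in replicate 2 and 2 in replicate 3, although the totals of these libraries were similar, and the part of this in the choice of sgRNAs was not tested. For the 62 well-counted sgRNAs the median CPM was 99.2 in PBS, 1658 in replicate 1, 88.6 in replicate 2 and 100.2 in replicate 3. The 179 other sgRNAs of their 60 genes had a median log2 ratio of replicate 1 to replicates 2 and 3 of -1.67. By the mean level in replicates 2 and 3, the quartiles of the library from lowest to highest gave 31, 29, 29 and 20 expanded sgRNAs, or 1.74, 1.62, 1.62 and 1.12% of each quartile.

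Among the other libraries the highest level was that of PBS for 28 expanded sgRNAs, of replicate 2 for 28 and of replicate 3 for 53. Replicates 2 and 3 lay within 2-fold of each other for 99 of the 109 (90.8%), against 84.0% of all sgRNAs, and across the 109 their Pearson's r of log2(CPM + 1) was 0.958. Across all sgRNAs that r was 0.959, so the closeness of replicates 2 and 3 was not particular to the expanded sgRNAs. The rule that chose them also used these values.

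The labels give 1 comparison, oxaliplatin against PBS, and it was read for the other sgRNAs of the expanded genes, beside all sgRNAs fitted, expanded ones included. Over all 7106 sgRNAs fitted with edgeR's quasi-likelihood test, 595 (8.37%) were higher with oxaliplatin and 0 (0%) lower at a Benjamini-Hochberg adjusted p under 0.05. At an unadjusted p under 0.05, 1836 were higher and 103 lower. The number called changed with the settings. With total counts, the scaling behind every CPM here, edgeR called 0 higher and 0 lower (1461 and 47 at an unadjusted p under 0.05). Without replicate 1 it called 2712 higher and 1101 lower. Under every setting that gave calls, more were higher than lower. Of the 315 other sgRNAs of the expanded genes that were fitted, 31 (9.84%) were higher, on 28 genes, and 0 were lower, with 82 and 6 at an unadjusted p under 0.05. The share lay near the background. Of the 31, 26 had fewer than 3 counts in PBS, as had 474 of the 595, and with at least 30 PBS counts required 0 were called (2 at an unadjusted p under 0.05). DESeq2 called 84 of 317 (26.5%, against 28.4% of all) higher and 2 lower. The lone PBS library was assumed to vary like the oxaliplatin libraries.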

How the data were processed

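The authors deposited read counts per sgRNA, as whole numbers that had not been normalised, for 1 PBS library and 3 libraries of 10 µM oxaliplatin. MAGeCK is listed, without its version, in the submitters' processing notes. Trimming of reads and their matching to sgRNAs are not described there. The counts of the separate libraries equalled those of the joint table for 7142 of 7142 sgRNAs in each library. Reads were amplified by PCR without molecular identifiers, so the intervals of ratios cover counting error only.

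CPM were computed from the deposited counts and the total of each library (Python 3.11.15, pandas 2.3.3, numpy 2.4.6, scipy 1.17.1). Ratios to the highest other library had nothing added and carry exact 95% intervals from the binomial split of the paired counts. Log2 ratios, and the 2-fold comparison of replicates 2 and 3, had 1 CPM added to each side. Oxaliplatin was compared with PBS on the counts in edgeR 4.0.16 (R 4.3.3) with TMM factors, the filterByExpr filter and Benjamini-Hochberg adjustment over all fitted sgRNAs. DESeq2 1.42.0 was an alternative. Alternatives were another fold (4, 16), another level (50, 200 CPM), other scalings, a floor of 3 counts, thinning every library to 8934799 counts, and leaving out each library.

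Named sgRNAs were those of genes with 2 or more expanded sgRNAs, the 10 most abundant, the 3 on each side of each threshold, up to 3 of each of 17 gene lists, and any on the 10 genes that the study tested. Others are marked as chosen after their values were seen, and 1 gene that the rule names is not reported here. ALG6, DSE, the ELOVL5 comparison, the leading summed genes and the library-code entries were also singled out for their values. The expanded sgRNAs, lists and tests were chosen with earlier results of these data known. Of the 106 genes, 104 have a current symbol in RefSeq (GRCh38.p14), and ILVBL and MUT are kept as the table gives them. Whether the oxaliplatin libraries came from separate cultures beyond the division into groups is not stated, so the spread between them may be technical.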

Additional observations from a re-analysis of the deposited data

How the results depend on the processing

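The number of expanded sgRNAs was 232 at 4-fold, 41 at 16-fold, 474 with median-ratio scaling and 480 with TMM, against 109. The number of genes with at least 2 was 9, 0, 35 and 38 in the same order, against 1. Levels of 50 and 200 CPM, a floor of 3 counts and thinning gave 103 to 113 sgRNAs and 1 gene. Leaving out 1 comparison library gave 115 to 137 sgRNAs and 2 to 3 genes, with SCCPDH joining UROD without PBS (2 genes), and GPX4 and PLPP5 without replicate 3 (3 genes). Without replicate 2 there were 2 genes. No paired analysis was possible because there is only 1 PBS library.

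Among the other sgRNAs of the expanded genes, the 31 edgeR calls of higher with oxaliplatin became 0 with total counts (65 at an unadjusted p under 0.05), 0 with at least 30 PBS counts and 84 with DESeq2. They ranged from 12 to 111 when 1 oxaliplatin library was left out. There were 111 without replicate 1 (35.2%, against 38.2% of all sgRNAs fitted). Without replicate 2 there were 23 (7.32%, against 8.54%), and without replicate 3 there were 12 (3.85%, against 4.23%). Calls of lower numbered 0, against 2 with DESeq2 (0.631%, against 0.406% of all) and 0 to 48 with 1 oxaliplatin library left out. The 48 came without replicate 1 (15.2%, against 15.5% of all). RLE factors gave 25 calls of higher (7.94%, against 7.16% of all) and no filter gave 30 (9.46%, against 8.33%). For sgRNAs at 0 in PBS the counts give no fold over PBS, only a lower bound, at totals that differed little between PBS and replicates 2 and 3.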

Other observations

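Lowering the fold to 4 gave 9 genes with at least 2 sgRNAs, whose values are given here with no test and were picked after they were seen. At that fold the partner passed too in 18 of 684 pairs (2.63%), below the 3.25% of all sgRNAs that passed. Besides UROD they included ACAD10, CYP4F22, FN3KRP, FUT2, HS3ST3B1, HS3ST6 and PLPP5. For PLPP5, a lipid phosphate phosphatase, sgRNA_7067 had 0 counts in PBS, 27422 in oxaliplatin replicate 1, 825 in replicate 2 and 1630 in replicate 3, a CPM 6.80 times that of its highest other library, beside the expanded sgRNA_7066 with 0, 9652, 35 and 69 counts in the same order. For HS3ST6, a heparan sulfate sulfotransferase, sgRNA_5438 had 3298, 57621, 3260 and 2620 counts (5.66 times). ACAD10, CYP4F22 and FN3KRP reached the pair without any expanded sgRNA. Each of ACAD10's sgRNA_5785 (467, 10263, 502 and 787 counts) and sgRNA_5787 (2818, 42117, 890 and 2110 counts) was highest in replicate 1.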
